A study of Rattus norvegicus with 20 samples.

Results

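The insulin-like growth factor (IGF) system was followed in the rat supraoptic nucleus (SON) through 10 genes, of 32402 in the deposited tables. The members were named by symbol, and earlier results of these data were known when they were chosen. They are the ligands Igf1 and Igf2, the receptors Igf1r and Igf2r, and the binding proteins Igfbp2, Igfbp3, Igfbp4, Igfbp5 and Igfbp6. The list also holds Igf2bp2, an RNA-binding protein. Each symbol matched a single Ensembl gene, and all 10 passed the filter on low values in every comparison. Polyadenylated RNA of SON punches was sequenced from 20 male Wistar Han rats, 5 in each of 4 groups. Adult rats were 3 months old and aged rats 18 months old, and in each age group the rats were either euhydrated (EH), with free access to water, or dehydrated (DH). The labels give DH as 2 days without water for both ages, whereas the study's methods give a longer deprivation. The adult data had been published earlier, and the study's methods state that tissue sampling, RNA isolation and sequencing were carried out together for both ages.

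IGF1 and IGF2 are secreted peptides that act mainly through the receptor tyrosine kinase encoded by Igf1r, which is coupled to the phosphatidylinositol 3-kinase and MAP kinase pathways. Igf2r encodes the cation-independent mannose 6-phosphate receptor, which takes up and degrades IGF2 and also sorts lysosomal enzymes. Binding proteins in the extracellular fluid and matrix hold IGFs away from the receptor or store them, and proteases that cleave the binding proteins set them free. In adult brain, Igf2 and Igfbp2 are known from the leptomeninges and the choroid plexus.

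Values are the authors' normalized counts, which are read counts divided by the size factor of the library. They come in 3 tables, each scaled over its own 10 libraries, so levels are compared within a table, and levels of different genes are not compared because transcript length is not included. The whole reads recovered from the adult table summed to between 24268398 and 28491926 per rat, and the normalized counts of the aged rats to between 27801540 and 28689164 per library. Counting error, taken as the square root of the count, was between 0.824% for Igf2 in adult DH and 19.6% for Igf2bp2 in aged EH. The summed counts of 6 magnocellular neuron markers, Avp and Oxt among them, were between 207363 and 527056 in the 20 rats, and no library lacked them. LFC stands for the log2 fold change on log2 of the normalized count plus 1, tested with limma, and a differentially expressed gene (DEG) has a Benjamini-Hochberg adjusted p under 0.05 over all genes tested. A punch of tissue does not separate fewer cells of a type from less RNA per cell.

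In aged EH against adult EH, called ageing here, 6 of the 10 members were DEGs, where 5.99% of 15369 genes tested were DEGs. Igf1, Igf2, Igfbp2, Igfbp5 and Igf2bp2 were lower in aged EH (background for lower expression 3.30%), and Igfbp3 was higher (background 2.69%). The 5 aged and the 5 adult rats did not overlap in 7 members, against 6.38% of all genes tested. In adult DH against adult EH, 5 members were DEGs, against 12.7% of 15280 genes. Igfbp3, Igf2bp2 and Igf2r rose (background 7.67%) and Igf1 and Igfbp5 fell (background 4.99%). In aged DH against aged EH, 3 members were DEGs, against 7.29% of 15346 genes, with Igfbp3 and Igf2r higher (background 4.05%) and Igfbp5 lower (background 3.25%). The groups did not overlap in 5 members in adult DH and in 2 in aged DH, where 10.9% and 7.05% of genes tested did not overlap. The median LFC of the 10 members was -0.31 in ageing, 0.05 in adult DH and 0.00 in aged DH, beside medians over all genes tested of 0.000331, -0.00735 and -0.00302. Ageing and adult DH share the 5 adult EH rats, and ageing and aged DH share the 5 aged EH rats, so neither pair of comparisons is independent. The DH comparisons of the adult and aged rats have no rat in common.

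**Figure D1:**
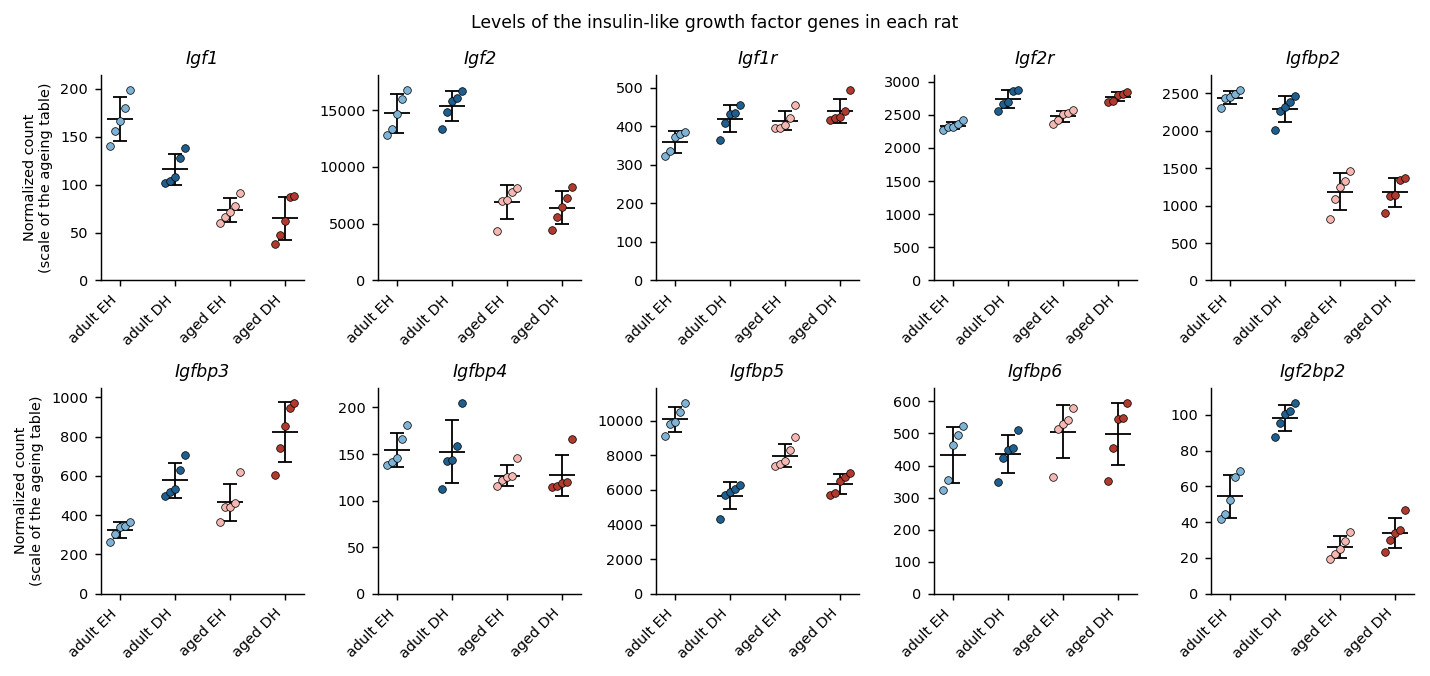
Normalized count of each member (vertical axes from 0, on the scale of the ageing table) in each of the 20 rats, with 1 point per rat, the group mean and bars of 1 SD (n = 5). The adult DH values were multiplied by 1.04 and the aged DH values by 1.001, from the EH rats that the tables share. Igf2 and Igfbp2 split by age, Igfbp3 is higher in DH at both ages, and Igfbp5 is highest in adult EH.

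Igf1, the ligand with the highest affinity for Igf1r, stood at 140.4, 180.4, 156, 167 and 199 normalized counts in adult EH rats 1, 2, 4, 5 and 6. In aged EH rats 1, 2, 4, 5 and 6 it stood at 77.9, 66.1, 59.5, 71.6 and 92.2. All aged rats lay below all adult rats, and the means were 169 ± 22.5 and 73.5 ± 12.5 (SD, n = 5). The LFC was -1.19 (SE 0.133; limma adjusted p = 0.000236). The Igf1 counts of adult DH rats 1 to 5 were 123, 97.4, 100.05, 103 and 133, and in the adult EH rats they were 135, 173, 149, 160.0 and 191. The 2 groups lay next to each other without overlapping, with adult DH 5 just under adult EH 1. Igf1 fell by 0.53 on the log2 scale in adult DH (SE 0.119; limma adjusted p = 0.0103), but this call was lost when the replicate number was added as a block (adjusted p = 0.104). In aged DH rats 1, 2, 3, 5 and 6 Igf1 was at 88.3, 87.5, 47.5, 62.03 and 38.3 normalized counts. Aged DH 3 and 6 lay below the aged EH rats (59.5 to 91.6) and the other 3 among them, with an LFC of -0.23 (95% confidence interval -0.71 to 0.24; limma adjusted p = 0.603). Of 6 markers of microglia, a cell type known to make Igf1, 3 were higher (background 2.69%) and none lower in ageing. Their sums were 4891 to 5528 in adult EH and 5781 to 6890.0 in aged EH. None of the 6 was called in adult DH, where the sums were 4692 to 5312 in EH and 4334 to 4838 in DH. The part of these cells in the Igf1 values was not tested.

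Igf2 is an imprinted gene whose product acts on Igf1r and is cleared by Igf2r. The aged EH rats had 7773, 8158, 4369.7, 7072 and 7057 normalized counts, against 13335, 14623, 16817, 12788 and 15943 in adult EH. The groups did not overlap. The LFC was -1.12 (SE 0.137; limma adjusted p = 0.000469), and -0.96 without aged EH 4, the lowest (limma adjusted p = 3.68e-05). With DH the groups overlapped at each age, and only aged DH 1 lay outside the range of its EH rats, just above it. Adult DH rats 1 to 5 had 15403, 14239, 15137, 16007 and 12770.1 counts beside 12267 to 16105 in adult EH, and the LFC was 0.06 (95% confidence interval -0.10 to 0.23; limma adjusted p = 0.641). Aged DH rats 1, 2, 3, 5 and 6 had 8187, 5577, 6443, 7249 and 4466 counts beside 4368 to 8146 in aged EH, with an LFC of -0.10 (95% confidence interval -0.47 to 0.26; limma adjusted p = 0.786). A DH response of 1.5-fold lies outside the interval at both ages.

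Igfbp2, a binding protein with a preference for IGF2, had a similar pattern. The adult EH rats had 2545, 2439.9, 2491, 2297 and 2435 normalized counts, and aged EH rats 1, 2, 4, 5 and 6 had 1460.2, 1323, 816, 1251 and 1091. The groups did not overlap, aged EH 4 was again the lowest, and the spread was wider in the aged rats (SD 247) than in the adult rats (SD 92.2). The LFC was -1.07 (SE 0.116; limma adjusted p = 0.000184). Adult DH rats 1 to 5 had 2225, 2359, 2175, 2289 and 1921 counts, against 2204 to 2442 in adult EH, with an LFC of -0.10 (95% confidence interval -0.21 to 0.01; limma adjusted p = 0.235). The study names Igfbp2 among genes that DH raised in adult rats and ageing lowered. The fall in ageing was seen here, but the LFC in adult DH was below 0 and not called. The study's DEGs came from DESeq2, and neither DESeq2 nor edgeR on the recovered reads called Igfbp2 in adult DH. In aged DH the LFC was 0.00 (95% confidence interval -0.30 to 0.30; limma adjusted p = 0.995).

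Igf2 and Igfbp2 also moved together from rat to rat within the groups. Over the 20 rats, after subtraction of each group's mean, their log2 values had a Pearson's r of 0.883 (permutation within groups, p = 0.000210, adjusted over 45 pairs of members 0.00945) and a Spearman's rho of 0.800 (permutation p = 0.000430, adjusted 0.0193). Without aged EH 4 and aged DH 6, the rats farthest from the median, r was 0.706. A group of 5 rats is too small for a separate value. Of the 45 pairs, the only other one past the adjusted threshold was Igf2r with Igfbp6, which ran in opposite directions (r = -0.632, permutation p = 0.00212, adjusted 0.0477, rho = -0.662, permutation p = 0.00159, adjusted 0.0358, r = -0.628 without the 2 rats farthest from the median).

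The RefSeq starts of the 2 genes are shown here because these genes fell together with age. Igfbp5 is shown beside them because it is the next protein-coding gene to Igfbp2 on the assembly GRCr8 and fell with DH while Igfbp2 was not called, and Igfbp3 because it rose with DH at both ages. Each sequence runs 5′ to 3′ on the strand of the gene, from 250 bases before the start to 50 after it, and capitals mark GC boxes (GGGCGG on either strand). The counts were made on another assembly, so these positions belong to the sequences alone. RefSeq gives 2 starts for Igf2, at chr1:207253931-207254230 and chr1:207250426-207250725, both on the minus strand. The Igfbp2 window is chr9:81864561-81864860 on the plus strand, that of Igfbp5 chr9:81914138-81914437 on the minus strand, and that of Igfbp3 chr14:86277895-86278194 on the minus strand.
Igf2, first start: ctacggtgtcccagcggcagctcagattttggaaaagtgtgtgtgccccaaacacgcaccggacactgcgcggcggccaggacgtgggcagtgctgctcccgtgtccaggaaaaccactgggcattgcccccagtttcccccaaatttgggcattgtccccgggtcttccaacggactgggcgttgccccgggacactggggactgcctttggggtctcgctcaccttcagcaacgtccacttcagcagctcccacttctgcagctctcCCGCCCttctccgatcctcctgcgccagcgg
Igf2, second start: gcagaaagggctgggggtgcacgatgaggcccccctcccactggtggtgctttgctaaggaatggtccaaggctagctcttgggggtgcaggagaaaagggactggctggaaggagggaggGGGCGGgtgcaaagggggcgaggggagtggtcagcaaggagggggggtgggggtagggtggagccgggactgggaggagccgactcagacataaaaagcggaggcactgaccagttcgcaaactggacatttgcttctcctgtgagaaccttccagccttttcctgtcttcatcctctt
Igfbp2: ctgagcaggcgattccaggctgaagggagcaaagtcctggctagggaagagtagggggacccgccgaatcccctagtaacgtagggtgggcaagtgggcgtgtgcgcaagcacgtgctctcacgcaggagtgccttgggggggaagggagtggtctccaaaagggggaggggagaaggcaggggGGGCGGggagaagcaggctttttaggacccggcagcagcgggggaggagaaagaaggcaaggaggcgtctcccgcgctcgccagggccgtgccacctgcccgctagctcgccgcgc
Igfbp5: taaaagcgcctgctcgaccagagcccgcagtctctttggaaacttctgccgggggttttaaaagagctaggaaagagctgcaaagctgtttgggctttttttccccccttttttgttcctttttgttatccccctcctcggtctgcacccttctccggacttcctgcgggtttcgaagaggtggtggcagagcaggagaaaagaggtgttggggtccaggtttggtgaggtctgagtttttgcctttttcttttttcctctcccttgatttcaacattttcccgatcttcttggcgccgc
Igfbp3: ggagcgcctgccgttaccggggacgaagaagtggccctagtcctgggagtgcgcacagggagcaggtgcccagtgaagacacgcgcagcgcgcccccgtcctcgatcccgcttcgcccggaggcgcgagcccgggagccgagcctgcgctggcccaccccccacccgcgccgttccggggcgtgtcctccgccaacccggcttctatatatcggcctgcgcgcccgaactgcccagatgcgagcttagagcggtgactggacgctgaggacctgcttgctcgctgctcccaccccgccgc

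Both Igf2 windows and the Igfbp2 window held 1 GC box each, and those of Igfbp5 and Igfbp3 held none, where 33.1% of 33469 RefSeq promoter windows of this length hold at least 1. The G+C content was 63.3% and 60.7% for Igf2, 66.7% for Igfbp2, 50.7% for Igfbp5 and 71.7% for Igfbp3, around a median over all windows of 51.7%. None of the 11 windows of the 10 members held the AP-1 motif TGANTCA, present in 7.33% of all windows, or the cyclic AMP response element TGACGTCA, present in 1.83%, on either strand. The window of Igf2bp2 had the most GC boxes, 6, with a G+C content of 82.3%. Those of Igf2r and Igf1r held 2 and 1, and those of Igf1, Igfbp4 and Igfbp6 held none.

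Markers of leptomeningeal fibroblasts moved in the same direction as Igf2 and Igfbp2 in ageing. Of 13 markers tested, 8 were lower in aged EH (background 3.30%) and all 13 had an LFC below 0, with a median of -0.59. The summed counts of the 14 markers found ran from 19558 to 23746 in adult EH and from 10530 to 15902 in aged EH, with aged EH 4 the lowest. Col1a1 (LFC -1.66) and Col3a1 (LFC -1.34), which encode fibrillar collagens, had the lowest LFCs of the list, and Col1a2 was listed at 0 in every library. The sum gives most weight to markers with many counts, such as Pdgfra with means of 3655 in adult EH and 3035 in aged EH. Pdgfra is not particular to these fibroblasts, and ratios without it were not computed. Relative to the marker sum of the same rat, Igf2 was also lower in aged EH. The log2 ratio was -0.55 ± 0.19 in adult EH and -1.04 ± 0.136 in aged EH (SD, n = 5), a difference of -0.49 (two-sided exact permutation test, p = 0.00794, adjusted over 6 ratio comparisons 0.0159), and the groups did not overlap. For Igfbp2 the log2 ratio went from -3.14 ± 0.108 to -3.57 ± 0.164 (SD, n = 5), a difference of -0.43 (exact permutation p = 0.00794, adjusted 0.0159). The smallest p that 5 rats against 5 allow is 0.00794. With the collagens left out of the list, these differences were -0.70 for Igf2 and -0.65 for Igfbp2. With the mean of the markers' log2 values in place of the log2 sum, they were -0.55 and -0.50. Col1a1 and Col3a1 fell more than Igf2 (LFC -1.12) and Igfbp2 (LFC -1.07), and ratios to these collagens alone were not computed. The size of the difference thus depends on the markers in the sum. How much of the lower Igf2 and Igfbp2 belongs to a smaller share of leptomeningeal tissue in the punch was not tested.

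In DH the marker sum was 18762 to 22740 in adult EH and 20486 to 26023 in adult DH. There 2 of 13 markers were higher (background 7.67%) and 11 were not called. The ratio of Igfbp2 to the sum was lower in all 5 adult DH rats than in any adult EH rat, by 0.31 on the log2 scale (exact permutation p = 0.00794, adjusted 0.0159), although Igfbp2 itself was not called. The ratio of Igf2 differed by -0.15 (exact permutation p = 0.159, adjusted 0.238). In the aged rats, where 0 of 13 markers were called (10527 to 15879 in EH and 10964 to 15652 in DH), the ratios differed by -0.07 for Igf2 (exact permutation p = 0.452, adjusted 0.543) and by 0.03 for Igfbp2 (exact permutation p = 0.738, adjusted 0.738). The choroid plexus markers had a sum of 501 to 1058 in adult EH and 396 to 893 in aged EH, with 1 of 6 higher in ageing (Clic6) and 2 of 6 lower in adult DH (Slc4a5 and Clic6), and 1 of the 7 was at 0 in each group.

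**Figure D2:**
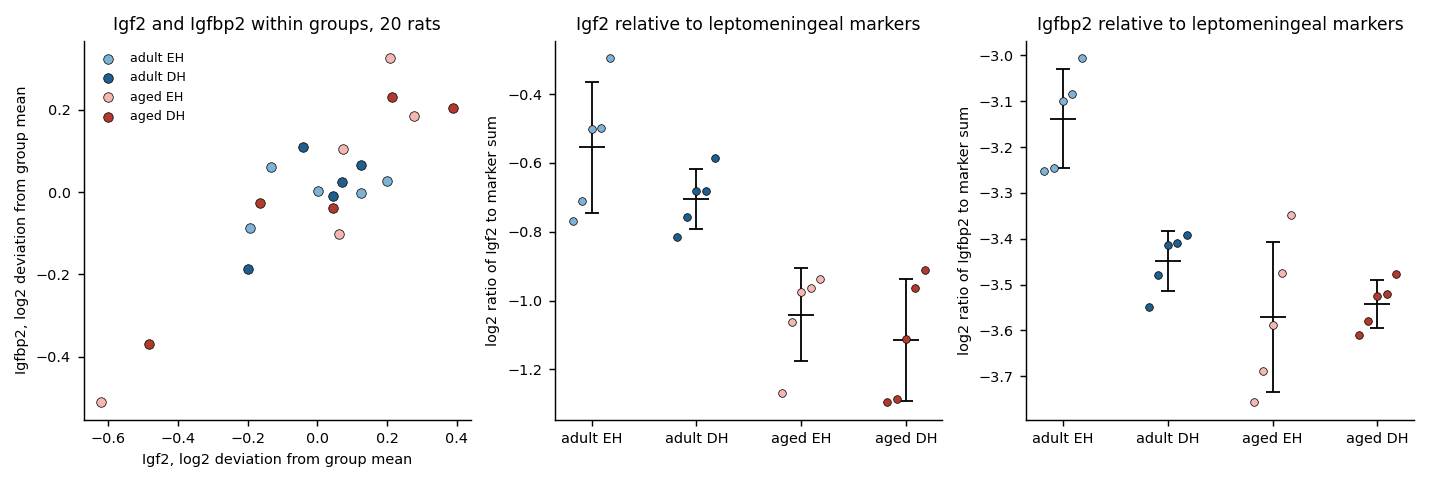
Left, log2 deviation of Igfbp2 from its group mean against that of Igf2, with 1 point for each of the 20 rats. Middle and right, log2 ratio of Igf2 and of Igfbp2 to the summed counts of 14 leptomeningeal markers of the same rat, with group means and bars of 1 SD (n = 5). The aged rats have lower ratios than the adult EH rats for both genes, and adult DH lies below adult EH for Igfbp2.

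The genes whose values moved most like those of Igf1, Igf2, Igfbp2 and Igfbp5 were ranked across rats. Likeness was the Pearson's r of deviations from the group means over 20 rats, among the 13214 genes whose mean reached 50, and is a description without a test. For Igf2 the 5 highest were Cavin1 (0.928), which encodes a caveolar coat protein, Col4a5 (0.912) and Col18a1 (0.908), which encode basement membrane collagens, Olfml3 (0.898) and Pcolce (0.891), which encodes an enhancer of procollagen processing. For Igfbp2 they were Pcolce (0.958), Col4a5 (0.915), Aebp1 (0.909), Bgn (0.895) and Vim (0.892). With the 2 rats farthest from the median left out, these r values were between 0.706 and 0.892. For Igf1 the 5 highest were Gask1b (0.791), Lsr (0.769), Akr1c15 (0.740), Ptcd2 (0.730) and Nim1k (0.721), none of which was among those of Igf2. For Igfbp5 they were Herc4 (0.846), a gene without a symbol (ENSRNOG00000006932, 0.842), Polr1e (0.793), Traf7 (0.760) and Txlna (0.751). Without the 2 rats farthest from the median, r ran from 0.586 to 0.807 for the Igf1 genes and from 0.583 to 0.788 for the Igfbp5 genes. The study's own network analysis used the same 4 groups. It had named Igf2 the most connected gene of a module that followed body weight, with Bgn and Col4a5 also highly connected.

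Igf1r, the signalling receptor, had 372, 321, 379.6, 335 and 386 normalized counts in adult EH and 421, 396, 396, 454 and 406 in aged EH. The groups did not overlap, but the LFC of 0.21 did not pass the threshold (SE 0.0692; limma adjusted p = 0.0960). Adult DH rats 1 to 5 had 393, 437, 414, 418 and 348 counts beside 309 to 371 in adult EH, and only adult DH 5 lay within the range of the EH rats. The LFC of 0.22 did not pass (SE 0.0749; limma adjusted p = 0.0686), whereas DESeq2 on the recovered reads called the gene (adjusted p = 0.0467), as did limma without adult DH 5 (adjusted p = 0.0273). In aged DH the LFC was 0.08 (95% confidence interval -0.06 to 0.22; limma adjusted p = 0.512).

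Igf2r rose with DH at both ages by a small amount, without overlap between the rats. Adult DH rats had 2458, 2559, 2589, 2759 and 2742 counts and adult EH rats 2171, 2315, 2263, 2223 and 2222 (LFC 0.23, SE 0.0365; limma adjusted p = 0.00118). Aged DH rats had 2797, 2709, 2837, 2686 and 2810.0 counts and aged EH rats 2349.9, 2419.7, 2564, 2519.9 and 2504 (LFC 0.16, SE 0.0348; limma adjusted p = 0.0110). Every DH rat lay above every EH rat of its age. With the replicate number as a block the call in aged DH was lost (adjusted p = 0.0596). In ageing the LFC of Igf2r was 0.09 (95% confidence interval 0.01 to 0.16; limma adjusted p = 0.171).

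Igfbp3, the main carrier of IGFs in the blood, rose with DH at both ages by nearly the same LFC. Adult DH rats 1 to 5 had 496, 479.7, 606, 511 and 678 counts, all above the 349, 255, 290.3, 331 and 327 of the adult EH rats (LFC 0.83, SE 0.106; limma adjusted p = 0.000193). Aged DH rats had 946, 851, 969.8, 740.3 and 604 counts and aged EH rats 442, 439, 618, 460.1 and 366 (LFC 0.82, SE 0.139; limma adjusted p = 0.00288). In the aged rats the groups overlapped by a single pair, aged DH 6 under aged EH 4. The responses of the 2 ages differed by -0.01 (95% confidence interval -0.40 to 0.39; limma adjusted p = 0.995). In ageing the counts were 364, 266, 303, 345 and 341 in adult EH and 443, 439, 618, 461 and 368 in aged EH, with no overlap but only a small gap between adult EH 1 and aged EH 6. Igfbp3 was called there with an LFC of 0.51 (SE 0.121; limma adjusted p = 0.0251), and the call was lost without adult EH 2 (adjusted p = 0.0553), adult EH 4 (0.0537) or aged EH 5 (0.0531). On the common scale the group means stood in the order adult EH 324, aged EH 465.6, adult DH 578 and aged DH 824, where adult DH against aged EH was not tested. None of the 6 endothelial markers was called with DH at either age, and their sums overlapped (9097 to 9790 in adult EH, 9070.1 to 10143 in adult DH, 8728 to 9517 in aged EH and 8719 to 10509.7 in aged DH).

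Igfbp5, a binding protein that also attaches to extracellular matrix, was lower in all 3 comparisons. In ageing the adult EH rats had 9945, 9765, 9155, 11015 and 10472 counts and the aged EH rats 9057, 8277, 7389, 7513 and 7719, so that aged EH 1 came close to adult EH 4 without overlapping it (LFC -0.33, SE 0.0587; limma adjusted p = 0.00522). Adult DH rats 1 to 5 had 5657, 5789, 5498, 4148 and 6047 counts, against 8767 to 10566 in adult EH. The LFC was -0.84 (SE 0.0849; limma adjusted p = 2.73e-05). Adult DH 4 stood apart from the other 4, and without it the LFC was -0.75 (SE 0.0488; limma adjusted p = 2.10e-06). Aged DH rats 1, 2, 3, 5 and 6 had 6939.9, 6741, 5792, 6478 and 5675 counts, all below the 7387 to 9043 of aged EH (LFC -0.33, SE 0.0651; limma adjusted p = 0.00654). The fall in adult rats was the larger of the 2 by 0.51 on the log2 scale (95% confidence interval 0.26 to 0.75, SE 0.117). This difference did not pass the adjustment over 15326 genes (limma adjusted p = 0.191), nor did it without adult DH 4 (0.41, adjusted p = 0.188). On the common scale the EH means stood at 10071 in adult and 7986 in aged rats and the DH means at 5658 and 6334, and the ranges of adult DH and aged DH overlapped.

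Igf2bp2 encodes a protein that binds messenger RNAs, that of Igf2 among them, and had the lowest counts of the members. Adult EH rats had 52.1, 41.6, 44.5, 65.5 and 68.4 counts and aged EH rats 29.7, 25.02, 34.4, 22.3 and 19.4, without overlap (LFC -1.03, SE 0.201; limma adjusted p = 0.00923). Adult DH counts of 97.7, 96.4, 91.2, 102 and 84.2 lay above all adult EH rats (40.0 to 65.6; LFC 0.87, SE 0.149; limma adjusted p = 0.00193). In aged DH the counts of 23.3, 30.2, 33.6, 46.8 and 35.3 overlapped with those of aged EH (19.2 to 34.4), and the LFC of 0.36 did not pass (95% confidence interval -0.11 to 0.82; limma adjusted p = 0.382). The difference between the ages was -0.51 (95% confidence interval -1.05 to 0.03; limma adjusted p = 0.536), so the response was not shown to differ.

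Igfbp4 and Igfbp6 were not called in any comparison. Igfbp4, a binding protein that inhibits IGF action in many cell types, had an LFC of -0.28 in ageing (95% confidence interval -0.50 to -0.05; limma adjusted p = 0.146), with 138 to 180.4 counts in adult EH and 115 to 147 in aged EH. The LFCs of Igfbp4 were -0.04 in adult DH and -0.01 in aged DH, where aged DH 1 stood at 166 and the other 4 between 115 and 119.8. Igfbp6, which prefers IGF2 to IGF1, had LFCs of 0.23 in ageing, 0.03 in adult DH and -0.03 in aged DH. In the DH comparisons the 95% confidence intervals of both genes reached about 0.25 or more to either side of 0. Responses within the intervals are not excluded with this spread between rats. A call needs an adjusted p under 0.05, so a response somewhat above that size could also have been missed.

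Between the ages, the response to DH differed by an adjusted limma p under 0.05 in 0 of the 10 members and in 0 of 15326 genes tested (0%). Without adjustment, 1522 genes (9.93%) had a limma p under 0.05, and Igfbp5 was the 1 member among them. Count models were not run for this comparison.

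**Figure D3:**
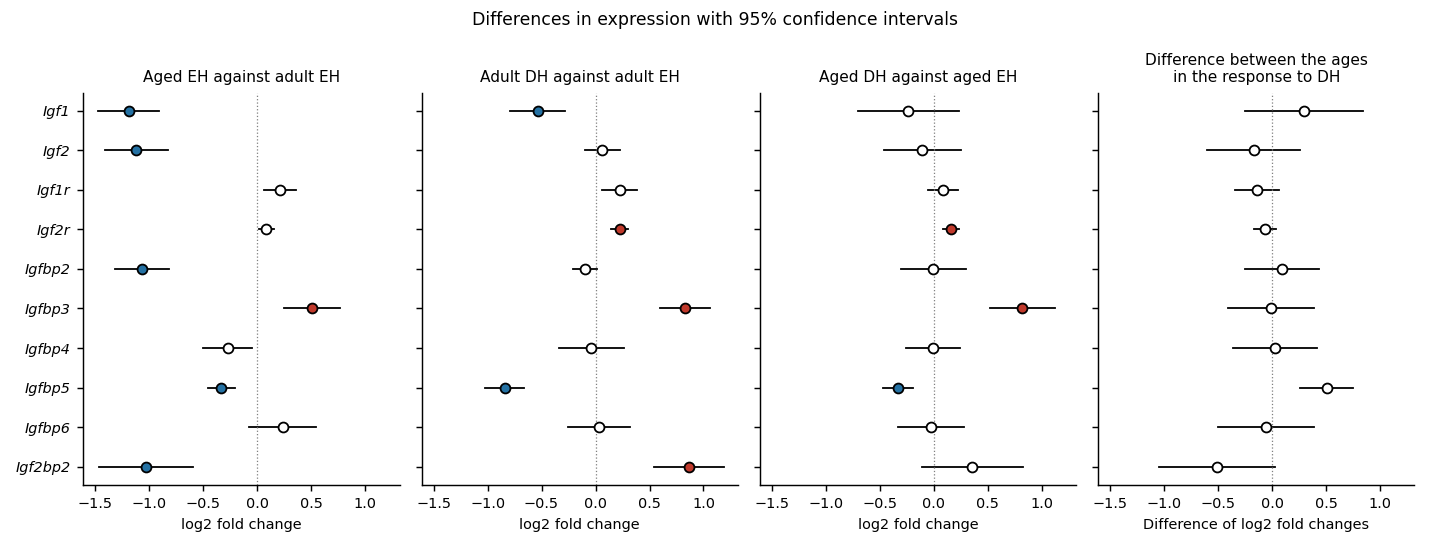
LFC of the 10 members in the 3 comparisons and, at the right, the difference of the DH responses, aged less adult. Points are limma estimates and lines 95% confidence intervals (n = 5 rats per group), with filled red for higher and filled blue for lower at an adjusted p under 0.05. Igfbp3 and Igf2r lie above 0 and Igfbp5 below 0 in both DH comparisons, and no point is filled in the right panel.

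Of 10 further family genes, only Igfbp7, Igfbpl1, Insr and Insrr reached a mean of 10 counts. Insr, the insulin receptor, rose in adult DH from 1385 ± 101 to 1567 ± 92.3 counts (SD, n = 5; LFC 0.18; limma adjusted p = 0.0476) and was the sole DEG among these 4 in any comparison. Igfbp7, also known as a product of vascular cells, had LFCs of -0.09, 0.13 and 0.01 in ageing, adult DH and aged DH. Ins1 was listed at 0 in all libraries, and Igfbp1, Igfals, Igf2bp1, Igf2bp3 and Ins2 had means under 10.

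Proteases that cleave the binding proteins, and their regulators, were followed in 14 genes that could be tested. In ageing Pappa2 and Mmp14 were lower (background 3.30%) and Mmp9 was higher (background 2.69%). Pappa2, a metalloprotease that cleaves IGFBP3 and IGFBP5, went from 416 ± 72.7 to 158 ± 39.9 counts (SD, n = 5; LFC -1.41, SE 0.165; limma adjusted p = 0.000331), and with DH its LFCs of 0.07 in adult and -0.30 in aged rats were not called. In adult DH 5 of 14 were higher (background 7.67%) and none lower, with a median LFC of 0.11. Htra1, a serine protease known to cleave IGFBP5, rose from 1359 ± 118 to 2124 ± 181 counts in adult rats (SD, n = 5; LFC 0.64, SE 0.0655; limma adjusted p = 2.81e-05) and from 1541 ± 112 to 2297 ± 138 in aged rats (SD, n = 5; LFC 0.58, SE 0.0539; limma adjusted p = 6.15e-05). Mmp9, a gelatinase, rose from 24.0 ± 10.1 to 69.7 ± 20.2 counts in adult rats (SD, n = 5; limma adjusted p = 0.00292) and from 57.3 ± 23.7 to 146 ± 37.9 in aged rats (SD, n = 5; limma adjusted p = 0.00274). The other 3 in adult DH were Htra3 (LFC 0.26), Plat (0.23), which encodes tissue plasminogen activator, and Timp3 (0.15), an inhibitor of metalloproteases. In aged DH Htra1 and Mmp9 were the 2 DEGs of 14 (background for higher expression 4.05%).

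Of 34 genes followed in the pathway downstream of the IGF receptor, 3 were higher in ageing, 5 in adult DH and 3 in aged DH, beside backgrounds for higher expression of 2.69%, 7.67% and 4.05%, and the median LFCs were 0.0111, 0.0183 and 0.00411. Eif4ebp1, the translational repressor that mTOR phosphorylates, was higher in all 3. It went from 206 ± 26.7 to 349 ± 25.4 counts in adult DH (SD, n = 5; LFC 0.77; limma adjusted p = 9.26e-05) and from 279.9 ± 30.2 to 468 ± 78.5 in aged DH (SD, n = 5; LFC 0.73; limma adjusted p = 0.00184), with an LFC of 0.39 in ageing (limma adjusted p = 0.0371). The others were small. Irs2, an adaptor of the receptor, was higher in ageing and in adult DH (LFC 0.16 in both), Ptpn11, a phosphatase of the pathway, in ageing (0.22) and in aged DH (0.16), and Hras in adult DH (0.15) and in aged DH (0.17). Shc1 (0.26) and Rheb (0.14) were higher in adult DH.

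Of 6 other imprinted growth genes tested, 2 were lower in ageing (background for lower expression 3.30%). In adult DH 4 were higher (background 7.67%) and 1 lower (background 4.99%), and in aged DH 3 were higher (background 4.05%). Cdkn1c, an inhibitor of the cell cycle that lies in the same imprinted region as Igf2, fell in ageing from 765 ± 81.1 to 448 ± 49.5 counts (SD, n = 5; LFC -0.77; limma adjusted p = 0.000257) and in adult DH (LFC -0.37; limma adjusted p = 0.0264), where Igf2 was not called. Ndn was lower in ageing (-0.17) and higher in adult DH (0.23) and in aged DH (0.29). Dlk1, which encodes a membrane protein related to Notch ligands, rose in adult DH (LFC 0.54; limma adjusted p = 0.00770) and in aged DH (LFC 0.63; limma adjusted p = 0.0433), as did Mest (0.40 and 0.31), and Peg3 rose in adult DH (0.21).

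**Figure D4:**
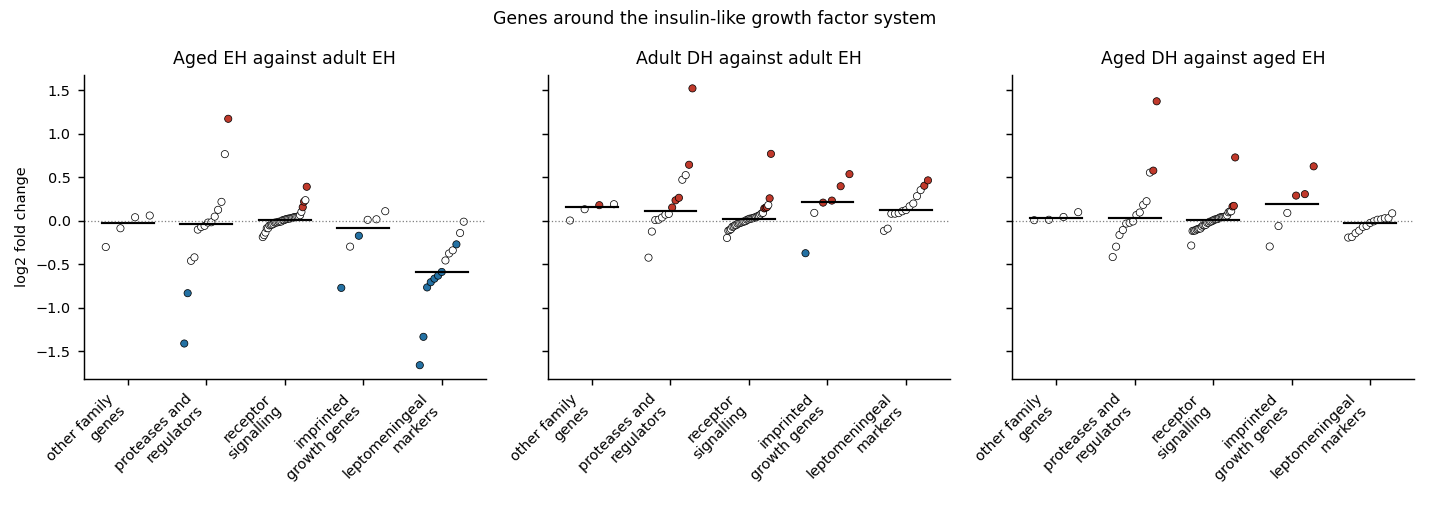
LFC of genes around the IGF system in ageing, adult DH and aged DH, with 1 point per gene tested, sorted by LFC within a list, and the median of each list as a line. Filled red is higher and filled blue lower at a limma adjusted p under 0.05. The leptomeningeal markers all lie below 0 in ageing, and Mmp9 is the highest point of the proteases in each panel.

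Other cell types were also followed by their markers, beside the backgrounds given above for all genes tested. In ageing 4 of 6 oligodendrocyte markers, 2 of 6 astrocyte markers, 1 of 6 endothelial and 1 of 9 mural cell markers were lower, and 3 of 6 microglia markers and 1 of 6 magnocellular markers (Pdyn) were higher. In adult DH 2 of 6 magnocellular markers (Avp and Pdyn) and 1 of 9 mural cell markers were higher and 1 of 6 oligodendrocyte markers was lower. In aged DH 1 magnocellular marker was higher (Pdyn) and 1 lower (Sim1), and 1 astrocyte and 1 oligodendrocyte marker were higher. None of 2 tanycyte markers tested was called. The part of these cell types in the differences of the members was not tested.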

How the data were processed

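Polyadenylated RNA of SON punches was sequenced by the authors as stranded paired-end libraries. The submitters' notes name FastQC, STAR, featureCounts and DESeq2, without versions, and the study aligned reads to the rat assembly Rn6. In each deposited table the signal is the read count per gene divided by the DESeq2 size factor of the library, as made by the authors within each of 3 tables. Columns of the authors' own fold changes, p-values and means were not used, and all 30 per-sample columns were. RNA integrity numbers came from the study's supplement.

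Values were log2(normalized count + 1). Genes with a mean of at least 10 were tested, two-sided, with limma 3.58.1 in R 4.3.3 (empirical Bayes moderation with a trend on the mean), adjusted with the Benjamini-Hochberg method at 0.05 over all genes. The difference between the ages used all 20 rats. Log2 ratios to marker sums were compared with exact permutation tests, and pairs of members with 100000 permutations within groups. Values above 0 in the adult table were whole multiples of 1 step per library within 0.1 reads, so edgeR 4.0.16 and DESeq2 1.42.0 were run on whole reads there as alternatives. Whole reads were not recovered from the other tables, and no count model was run there. Alternatives changed the pseudocount, filter, scaling, covariate, replicate block and rats. The fits were tested on simulated data.

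Named genes are all 10 members, the DEGs of the lists of pathway and marker genes, the family genes, and the 5 genes most like Igf1, Igf2, Igfbp2 and Igfbp5. Members and lists were chosen with earlier results of these data known. Pappa, H19 and Meg3 matched no symbol, and Gnas, Ogn and Crabp2 matched 2 genes each and were left out. Some genes of the receptor pathway are not reported here, so its list is partial. Promoter sequences are RefSeq's (GRCr8). Each sample is 1 rat, and replicate numbers were taken from the labels. Rats are not paired by number, since same-numbered rats of different groups correlated at -0.0825 to 0.162. Figures were drawn with matplotlib.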

Additional observations from a re-analysis of the deposited data

Results flagged for a closer look

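The 10 members were examined in 48 groups of 5 rats, the leptomeningeal ratios included, for a single rat far from the other 4, and 2 stood apart. The cutoff has a nominal rate of about 1 in 20 for independent, normally distributed groups. The ratio groups reuse the counts of Igf2 and Igfbp2, so the 48 are not independent and chance was not tested. The gap to the nearest rat was 0.904 of the range for Igfbp4 and 0.711 for Igfbp5. Aged DH 1 had 166 normalized counts of Igfbp4, where the other 4 aged DH rats had 115 to 119.8. Without it the LFC of Igfbp4 in aged DH was -0.11 (limma adjusted p = 0.627), not called either way. Adult DH 4 had 4148 normalized counts of Igfbp5, where the others had 5498 to 6047, and Igfbp5 was called in adult DH with and without it.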

How the results depend on the processing

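The counts of members called, 6 in ageing, 5 in adult DH, 3 in aged DH and 0 for the difference between the ages, stayed within 1.5 times under each alternative. With 1 rat left out in turn they were 5 to 6, 5 to 6, 3 to 3 and 0 to 0. The replicate block gave 6, 4, 2 and 0, losing Igf1 in adult DH (-0.44, adjusted p = 0.104) and Igf2r in aged DH (0.17, adjusted p = 0.0596), and changed no other call of a member. The numbers do not pair rats. Over all genes tested, the block moved the DEGs from 921 to 824 in ageing and from 1934 to 987 in adult DH. In aged DH it moved them from 1119 to 653. The RNA integrity number as a covariate moved the DEGs of adult DH to 1005. This number was equal in all adult EH rats and varied only among adult DH rats. The covariate thus overlaps with the treatment in adult DH. The ratio of Igfbp2 to the leptomeningeal markers in aged DH, not called, ran from -0.0174 to 0.0848 with a rat left out. Among members that were not called, direction turned with the RNA integrity number for Igfbp4 (0.19) in adult DH, Igfbp2 (0.0245) and Igfbp6 (0.0132) in aged DH, and Igfbp4 (-0.0280) and Igfbp6 (0.0330) for the difference between the ages. It turned with the block for Igfbp6 in adult DH (-0.0528), Igfbp4 in aged DH (0.0227) and Igfbp3 for the difference (0.0570). With a rat left out it turned in aged DH for Igf2 (-0.26 to 0.0166), Igfbp2 (-0.13 to 0.0899), Igfbp4 (-0.11 to 0.0442) and Igfbp6 (-0.14 to 0.0942), in adult DH for Igfbp4 (-0.15 to 0.0652) and Igfbp6 (-0.0689 to 0.11), and for the difference for Igfbp2 (-0.0330 to 0.19), Igfbp3 (-0.0887 to 0.10), Igfbp4 (-0.0718 to 0.14) and Igfbp6 (-0.17 to 0.0650). The causes were not tested. Depth limits Igf2bp2 most, where counting error in aged EH (19.6%) is close to the spread between rats (23.1%).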
